A study of Mus musculus with 6 samples.

Results

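Hoxa5, Hoxa7, Hoxa9, Hoxa10, Meis1, Mecom, Hlf, Gata2, Mycn and Cd34 are genes of the haematopoietic stem cell programme, and their transcripts were followed in an early lymphoid progenitor. They were taken as a fixed list of 10 genes, each read from the probe set that named it alone and had the highest mean over the arrays, out of 22180 genes that could be read in this way. All 10 had such a probe set, and 5 of them (Hoxa7, Hoxa9, Meis1, Gata2 and Cd34) lay above a cut-off for dim genes and were tested. The cells were common lymphoid progenitors without the surface marker Ly6D, sorted from mouse bone marrow and measured on Affymetrix arrays, 1 array per sample. The mutant group (3 samples) came from OcnCre+;iDTR+/- mice and the control group (3 samples) from OcnCre-;iDTR+/- mice, all 6 to 8 weeks old. Mice of both groups carried iDTR, an inducible receptor for diphtheria toxin, and were injected with the toxin every day for 4 weeks, with the sort on the day after the last dose. Cre in the mutants was driven by the osteocalcin promoter, so the toxin was aimed at osteocalcin-expressing bone cells. The comparison asks whether transcripts of the progenitors differ when those cells are targeted.

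In stem cells, the HOXA proteins bind DNA together with the partner proteins MEIS and PBX and keep genes of self-renewal and immature identity active. MECOM, HLF and GATA2 are DNA-binding regulators that stem cells need or are marked by, MYCN is a MYC family protein that supports their growth, and CD34 is a surface sialomucin of early progenitors. Most of these genes are known to be turned down as progenitors commit to the lymphoid lineage. GATA2 is kept or raised in the mast cell and basophil lineages, where it drives their own gene programmes.

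The arrays themselves were not equally alike. Over the tested genes, mutant replicate 2 correlated with the other arrays at 0.922 to 0.938, while the other 5 correlated with each other at 0.967 to 0.989, a correlation across genes, which are not independent. Of 9 markers of common lymphoid progenitors with a probe set, 8 lay above the cut-off, among them Il7r, whose control values of 9.81 to 10.35 lay above the mutant values of 9.72 to 9.80 (−0.34 ± 0.15, SE, adjusted p = 0.594 in limma). All 8 markers above the cut-off had a lower mutant mean, as did 7655 of all 13308 tested genes, and 0 of the 8 passed the test. Of the 8 markers, 5 had mutant values all below the control values, against 9.99% of all tested genes. After cyclic loess rescaling of the arrays, 7 of the 8 were lower (median −0.10, against −0.28 on the deposited values). Ptprc, the gene of the leukocyte antigen CD45, differed by −0.51 ± 0.16, Ly6d by −0.57 ± 0.29, Flt3 by −0.18 ± 0.20 and Kit by −0.02 ± 0.16. Ly6d, the gene of the marker that the sort excluded, lay above the cut-off. It was at 7.29 ± 0.28 in mutants and 7.86 ± 0.59 in controls (SD, n = 3 each), and the reason was not tested. The tissue label calls the samples stromal, and of 11 stromal markers with a probe set 7 (Alpl, Cxcl12, Col1a1, Col1a2, Bglap, Col3a1 and Pdgfrb) lay above the cut-off and 4 (Sp7, Pdgfra, Kitl and Lepr) below it. Of the 7 above the cut-off, 4 had a higher mutant mean and 3 a lower one, and 0 passed the test. Col3a1 differed by 0.25 ± 0.11 (SE), with mutant values all above the control values. The lower ones were Cxcl12 (−0.11), Col1a2 (−0.08) and Col1a1 (−0.04). Alpl was at 8.22, 7.97 and 8.29 in mutants and 7.82, 8.21 and 8.01 in controls. Bglap, the osteocalcin gene, was at 5.12, 5.50 and 5.22 in mutants and 5.04, 5.19 and 5.23 in controls, and the part of stromal cells in the results was not tested. Eif2s3y, a Y-linked gene, was low on mutant replicate 3 and control replicate 1 (4.77 and 4.88) and 7.31 to 7.85 on the other 4 arrays. The X-linked transcript Xist was at 8.03, 5.57 and 10.72 in mutants and 11.04, 8.07 and 6.57 in controls. Mutant replicate 1 and control replicate 2 thus had high Eif2s3y with Xist between the other values, and whether samples mixed sexes was not tested. Hbegf, the mouse counterpart of the human gene for the toxin receptor, was at 5.81 ± 0.06 in mutants and 5.50 ± 0.15 in controls (SD, n = 3 each). The difference of 0.31 ± 0.12 (SE) did not pass the test (adjusted p = 0.594 in limma). The labels do not say whether a sample was a single mouse or a pool, so every p measures only the spread between these samples, and in sorted populations a smaller share of cells with a transcript cannot be told apart from less of it per cell.

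None of the 5 tested regulators passed the test between mutant and control progenitors, and none of the 10 did in a fit without the filter. The largest differences among the 5 tested genes were those of Hoxa7 (0.16 ± 0.16 on the log2 scale, SE, adjusted p = 0.707) and Hoxa9 (0.16 ± 0.13, adjusted p = 0.67) in limma, with Benjamini-Hochberg adjustment over 13308 genes. The mutant and control values of each of the 10 genes overlapped, while 14.6% of all genes, and 15.4% of the tested ones (5.4% higher and 9.99% lower in mutants), had groups that did not overlap. At an adjusted p of 0.05, 0% of the tested genes passed. At an unadjusted p of 0.05, 1068 of the tested genes (8.03%) passed in limma, 2.01% with higher and 6.02% with lower mutant values. Without the filter 7.88% passed. Of the regulators, 0 of the 5 tested passed with the filter and 0 of the 10 without it. A mean above that of controls was found for 8 of the 10, all but Hoxa10 and Cd34, next to 55.4% of all genes. Among the tested genes alone that share was 42.5%, so genes below the cut-off were in general more often higher in mutants. The count moved with the scaling of the arrays: it was 7 of 10 (52.4% of all genes) with repeated quantile normalization, 6 of 10 (50% of all genes) after cyclic loess and 9 of 10 (66.3% of all genes) when arrays were centred on their medians.

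**Figure D1:**
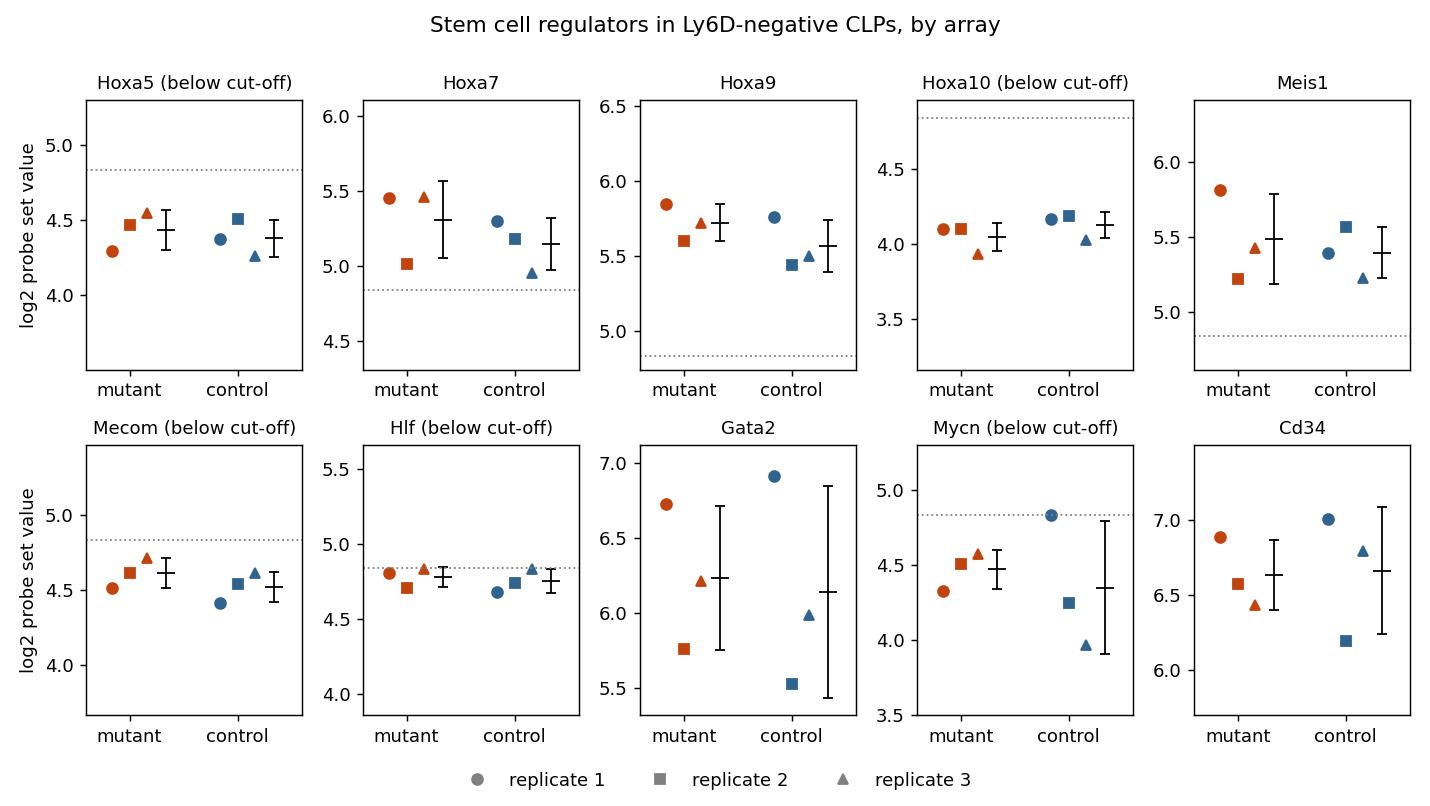
Log2 probe set values of the 10 stem cell regulators on the 3 mutant arrays (left of each panel, orange) and 3 control arrays (right, blue), with the mean and SD of each group beside the points. Every panel spans the same height on the log2 scale and the dotted line marks the cut-off for testing (4.84). The groups overlap in every panel, and the spread is widest for Gata2, from 5.53 to 6.91.

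Within the Hoxa cluster, the genes lie on chromosome 6 in the order Hoxa5, Hoxa6, Hoxa7, Hoxa9 and Hoxa10 in RefSeq, so the 4 chosen genes are close neighbours. Hoxa9, the HOXA gene best known for driving self-renewal in stem cells and in acute leukaemia, had values of 5.85, 5.60 and 5.73 in mutants 1, 2 and 3, against 5.76, 5.44 and 5.50 in controls 1, 2 and 3. The mutants averaged 5.72 ± 0.12 and the controls 5.57 ± 0.17 (SD, n = 3 each), with a 95% confidence interval of the difference from −0.16 to 0.47. Control replicate 1 lay above mutant replicates 2 and 3, so the groups overlapped through that array. Without control replicate 1 the difference was 0.25, and without control replicate 2 or mutant replicate 1 it was 0.09.

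Hoxa7, whose protein is another partner of MEIS and PBX, was at 5.45, 5.01 and 5.46 in the mutants, against 5.30, 5.18 and 4.95 in the controls. Mutant replicates 1 and 3 were the highest of the 6 arrays, whereas mutant replicate 2 lay between controls 2 and 3. The 95% interval of the difference was −0.21 to 0.54, and leaving out mutant replicate 2 gave 0.31 (adjusted p = 0.652 in limma). With array weights, which give little weight to mutant replicates 1 and 2 (0.36 and 0.21) and most to mutant replicate 3 (5.20), Hoxa7 was at 0.34 with an adjusted p of 0.0436 in limma, in a fit that called 2960 genes. Over the alternatives its adjusted p ran from 0.0436 to 0.924. A second probe set, annotated to both Hoxa7 and the neighbouring non-coding gene Mira, was at 6.89, 5.97 and 6.56 in the mutants and 6.56, 6.46 and 6.25 in the controls. On that probe set mutant replicate 2 was the lowest array and mutant replicate 1 the highest.

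Hoxa5 and Hoxa10 lay below the cut-off. The deposited table has no detection call, so a dim value cannot be separated from background, and the cut-off of 4.84 does not mark detection. The Y-linked gene Eif2s3y read 4.77 and 4.88 on the arrays where it was low. Values just above the cut-off, such as the lowest of Hoxa7, therefore have the same limit. Hoxa5 was at 4.29, 4.47 and 4.55 in mutants, against 4.38, 4.51 and 4.26 in controls, with control replicate 3 below all mutants and the other controls among them. Hoxa10, the only one of the 4 with a lower mutant mean, was at 4.10, 4.10 and 3.93 in mutants, against 4.16, 4.18 and 4.03 in controls. Without the filter the differences were 0.05 ± 0.12 for Hoxa5 and −0.08 ± 0.11 for Hoxa10 (SE, adjusted p = 0.877 and 0.787 in limma). For both, the difference was smaller than its error.

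Meis1, the gene of the homeodomain partner that binds DNA with HOXA9, was at 5.81, 5.22 and 5.42 in mutants 1, 2 and 3, against 5.39, 5.56 and 5.22 in controls. Mutant replicate 1 stood above all other arrays, while mutant replicate 2 and control replicate 3 were at the low end together. The mutants averaged 5.48 ± 0.30 and the controls 5.39 ± 0.17 (SD, n = 3 each), a difference of 0.09 ± 0.18 (SE, 95% interval −0.32 to 0.50, adjusted p = 0.847 in limma). Without mutant replicate 1 the sign turned, to −0.07.

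Mecom and Hlf, regulators that mark the most immature stem cells, also lay below the cut-off, with ranges over the arrays of 0.30 for Mecom and 0.16 for Hlf. Mecom was at 4.51, 4.61 and 4.72 in mutants, against 4.41, 4.54 and 4.61 in controls, and a dimmer probe set of the same gene gave 4.04, 4.21 and 4.20 in mutants and 4.09, 4.20 and 4.21 in controls. The brighter probe set differed by 0.09 and the dimmer by −0.02, so they did not share a sign. Hlf was at 4.81, 4.70 and 4.83 in mutants, against 4.68, 4.74 and 4.83 in controls, the narrowest range of the 10 genes. After cyclic loess the difference of Hlf was −0.06, against 0.03 on the deposited values. Mycn was at 4.33, 4.51 and 4.58 in mutants, against 4.83, 4.24 and 3.96 in controls. Control replicate 1 held the highest and control replicate 3 the lowest Mycn value, so the controls spanned the mutants, and the difference of 0.12 became 0.37 without control replicate 1 and −0.07 without control replicate 3.

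**Figure D2:**
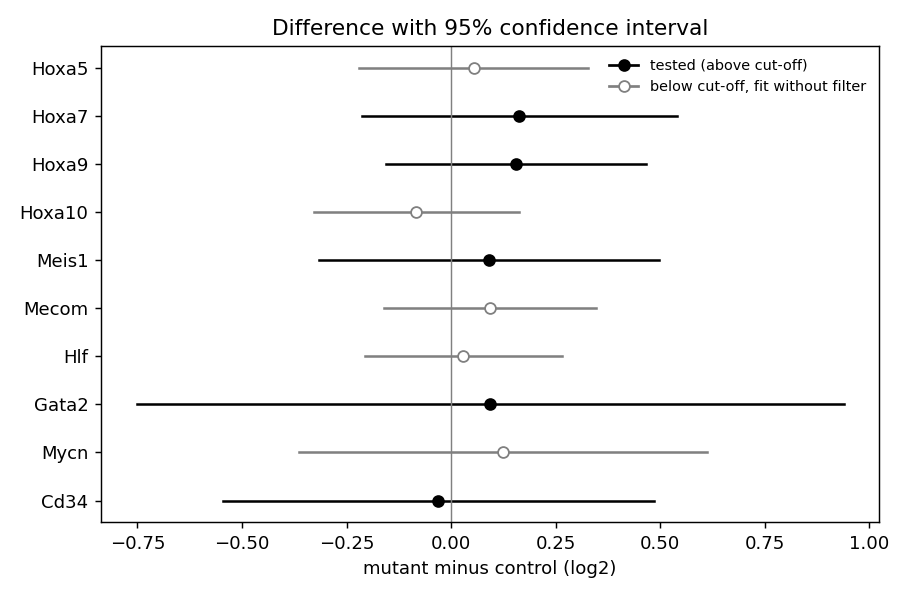
Mutant minus control on the log2 scale for the 10 regulators, with 95% confidence intervals from limma. Filled points were tested above the cut-off and open points come from the fit without a filter. Every interval holds 0, and the widest is that of Gata2, from −0.75 to 0.94.

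Gata2 varied most among the 10 genes, and it did so inside each group. It was at 6.73, 5.76 and 6.22 in mutants 1, 2 and 3, against 6.91, 5.53 and 5.99 in controls 1, 2 and 3. The first replicate of each group was the highest and the second the lowest, with a range of 0.97 in mutants and 1.39 in controls. The group means were 6.24 ± 0.48 in mutants and 6.14 ± 0.71 in controls (SD, n = 3 each), and the difference of 0.09 ± 0.37 (SE, adjusted p = 0.928 in limma) was well below that spread. Leaving out single arrays took it from −0.21, without control replicate 2, to 0.48, without control replicate 1, and it was −0.15 without mutant replicate 1.

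Genes of mast cells and basophils followed the same arrays. All 6 tested genes of that list other than Gata2 had their highest values on mutant replicate 1 and control replicate 1, and all 6 had their lowest value on mutant or control replicate 2, where 11% and 47.8% of all tested genes did. The order was noticed in these values and was not tested. Cpa3, a mast cell protease gene, was at 9.45, 8.34 and 8.80 in mutants, against 9.78, 7.17 and 8.34 in controls, and the basophil protease gene Mcpt8 at 10.59, 9.58 and 10.17, against 10.93, 8.89 and 9.98 in controls. Prss34, another basophil protease gene, was at 10.54, 9.67 and 9.83 in mutants and 11.23, 9.52 and 10.49 in controls. The median of the 6 genes, relative to the control mean, was 0.75, −0.78 and 0.06 in mutants and 0.99, −0.97 and −0.17 in controls. Of 13 myeloid genes, 10 also had both first replicates on top (median 0.68, −0.19 and 0.24 in mutants and 0.49, −0.24 and −0.01 in controls), as did 10 of 18 immediate early genes, and 0 of 9 early B lineage genes did. Both first replicates were also on top for 3 of 7 erythroid, 2 of 5 megakaryocyte and 6 of 20 stem cell transcription factor genes. The order was therefore not particular to mast cells and basophils. The part of these or other cells in the Gata2 values was not tested.

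Cd34 had the same leading arrays in a narrower range. It was at 6.89, 6.58 and 6.44 in mutants, against 7.01, 6.19 and 6.79 in controls. Both first replicates were again highest, but mutant replicate 3 and not mutant replicate 2 was the lowest mutant array. The mutants averaged 6.63 ± 0.23 and the controls 6.66 ± 0.42 (SD, n = 3 each), and the difference of −0.03 ± 0.22 (SE, 95% interval −0.55 to 0.48, adjusted p = 0.96 in limma) took the other sign under each of the 3 rescalings, at 0.03 to 0.04. Without control replicate 2 it was −0.27 and without control replicate 1 it was 0.14. A probe set shared by Cd34 and Gm16897 was far below the cut-off, at 3.95, 3.67 and 3.61 in mutants and 3.97, 3.93 and 3.91 in controls.

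**Figure D3:**
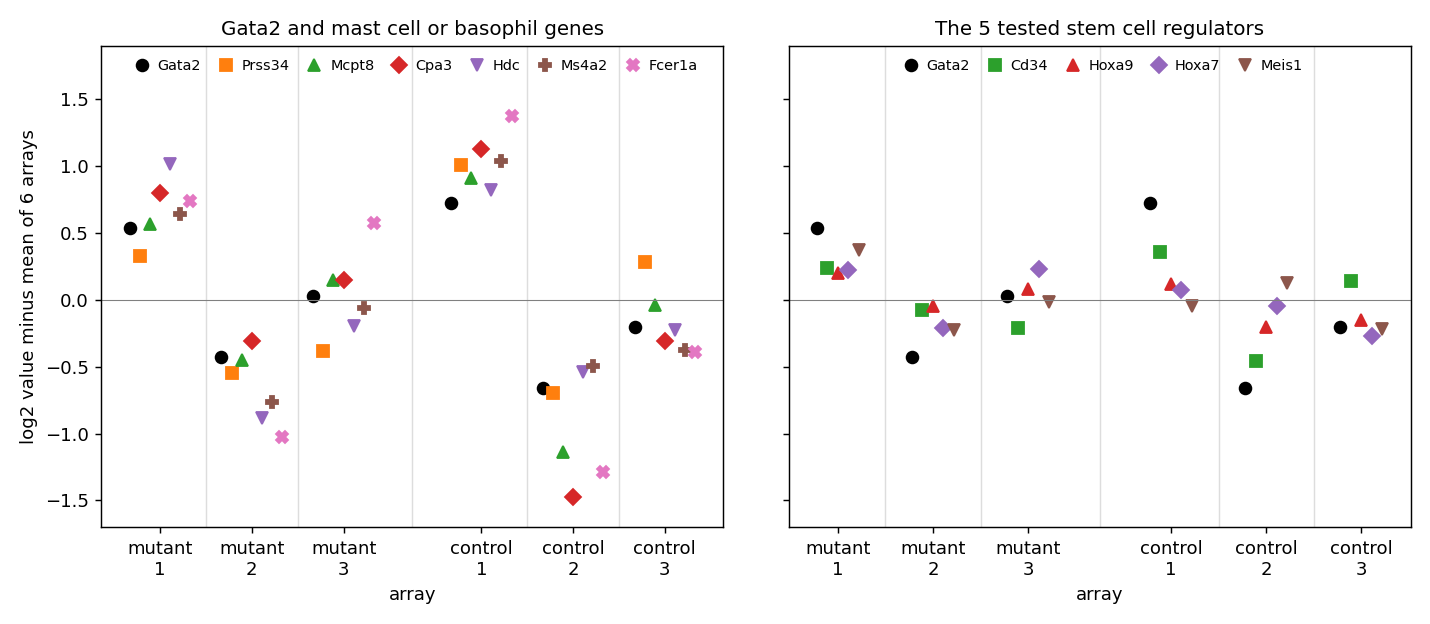
Log2 values minus the mean of the 6 arrays for Gata2 with 6 mast cell or basophil genes (left) and for the 5 tested regulators (right), mutant arrays before control arrays on the horizontal axis. Gata2 and the 6 genes are highest on mutant replicate 1 and control replicate 1 and lowest on the second replicate of either group, while Hoxa7 and Meis1 do not follow that order.

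Hoxa9, Gata2 and Cd34 were the 3 of the 10 regulators that were highest on both first replicates, and the 250 bases before their annotated starts (RefSeq, GRCm38.p6) are shown for that reason, written 5′ to 3′ along the gene's own strand. Gata2 has 2 annotated starts. Capitals mark the letters GATAA, the core that GATA factors read, on either strand.
Hoxa9, chr6:52227371-52227620, minus strand: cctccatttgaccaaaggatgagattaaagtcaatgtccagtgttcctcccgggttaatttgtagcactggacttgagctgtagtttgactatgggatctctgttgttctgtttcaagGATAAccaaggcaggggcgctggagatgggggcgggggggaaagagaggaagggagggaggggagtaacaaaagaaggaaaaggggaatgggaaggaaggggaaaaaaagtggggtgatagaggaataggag
Gata2, first start, chr6:88193641-88193890, plus strand: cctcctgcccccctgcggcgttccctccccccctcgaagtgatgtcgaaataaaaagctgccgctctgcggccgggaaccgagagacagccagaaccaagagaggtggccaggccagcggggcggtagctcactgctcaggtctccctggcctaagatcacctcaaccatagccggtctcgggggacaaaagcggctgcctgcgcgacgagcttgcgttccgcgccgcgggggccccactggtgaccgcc
Gata2, second start, chr6:88198414-88198663, plus strand: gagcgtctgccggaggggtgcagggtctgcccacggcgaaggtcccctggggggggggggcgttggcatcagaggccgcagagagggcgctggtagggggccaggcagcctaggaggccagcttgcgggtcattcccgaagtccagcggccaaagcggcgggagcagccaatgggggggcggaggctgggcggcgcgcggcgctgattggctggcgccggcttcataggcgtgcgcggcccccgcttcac
Cd34, chr1:194938571-194938820, plus strand: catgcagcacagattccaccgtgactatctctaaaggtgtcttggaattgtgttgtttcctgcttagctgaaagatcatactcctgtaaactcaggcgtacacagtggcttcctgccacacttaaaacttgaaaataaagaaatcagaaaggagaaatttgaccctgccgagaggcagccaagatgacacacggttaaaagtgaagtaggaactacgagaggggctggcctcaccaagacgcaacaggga
The Hoxa9 window held GATAA, and neither Gata2 window nor the Cd34 window did. Among all 10 regulators, GATAA was found before Hoxa9 and Mecom, in 3 of their 13 windows, against 22.6% of 32851 windows of all genes. The MEIS motif TGACAG was found before 1 gene, Mecom, in 1 of the 13 windows, against 15.9% of all windows. The HOX and PBX motif TGATTNAT, the MYC motif CACGTG and the HLF motif TTACGTAA were in 0 of the 13 windows, against 2.82%, 6.02% and 0.113% of all windows. Motifs were searched on both strands and no listed motif contains another. A match of letters is only a description, and its lack says nothing about binding.

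The profile nearest to each regulator was sought among the tested genes, as the root mean square difference over the 6 arrays of log2 values centred on each gene's mean. Hoxa9 lay nearest to Rora (0.025), a nuclear receptor gene that is also in the list of stem cell transcription factors, then to Ank1 (0.043) and Prrx1 (0.049). Gata2 lay nearest to the protease gene Ctse (0.067), then to the growth factor gene Hgf (0.096) and the steroid synthesis gene Cyp11a1 (0.109). Rora followed Hoxa9 closely, at 5.26, 5.04 and 5.17 in mutants and 5.14, 4.90 and 4.93 in controls. Cd34 lay nearest to B4galnt1 (0.084), Aqp1 (0.095) and Tubb6 (0.098), Hoxa7 to Lpcat2 (0.043), Zbed5 (0.043) and Mrps34 (0.048), and Meis1 to Gm13430 (0.046), Xk (0.053) and Cops7a (0.064). For the regulators below the cut-off, the nearest tested genes were Smad3 for Hoxa5 (0.026), Pwwp2a for Hoxa10 (0.022), Atcayos for Mecom (0.034), Taf13 for Hlf (0.021) and Sprr2b for Mycn (0.105). These distances describe 6 shared arrays, and with so many genes some lie near any profile.

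No other gene of the Hox system passed the test. Of 5 other Hoxa genes with a probe set, 2 were tested: Hoxa6 was at 6.01, 6.33 and 6.08 in mutants and 6.24, 6.41 and 6.16 in controls, and Hoxa4 at 4.96, 5.46 and 5.15 in mutants and 5.49, 5.34 and 4.66 in controls. For Hoxa6 the highest array was control replicate 2, and for Hoxa4 control replicates 1 and 3 were the highest and lowest. Hoxa3, named after its values were seen, was dim and not tested, with mutant values of 4.64, 4.77 and 4.59 all above control values of 4.45, 4.46 and 4.35. Groups did not overlap for 14.6% of all genes. The other dim genes of this list, Hoxa13 (−0.10) and Hoxa2 (−0.002), had groups that overlapped. Of 10 Hoxb genes 4 were tested, with 3 higher mutant means (median 0.14, next to −0.04 over all tested genes). After cyclic loess the Hoxb median was 0.06, and it was 0.08 with repeated quantile normalization. The Hoxb genes with a higher mutant mean were Hoxb1 (0.23 ± 0.15, SE), Hoxb9 (0.16 ± 0.13) and Hoxb4 (0.11 ± 0.12), a gene whose excess expands stem cells. The TALE cofactor genes, which encode the MEIS and PBX families, had 4 of 6 tested members with a higher mutant mean (median 0.05, and −0.01 without mutant replicate 1). Pbx3, a partner of HOXA9 and MEIS1, differed by 0.32 ± 0.16, Meis3 by 0.24 ± 0.18 and Pknox1 by −0.22 ± 0.12 (SE). None of these genes passed in limma (adjusted p = 0.594 to 0.968).

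Upstream of Hoxa, 13 of 16 tested chromatin regulator genes had a lower mutant mean (median −0.09), next to 42.5% of all tested genes with a higher one, and 0 passed. Kmt2a, the MLL histone methyltransferase that keeps Hoxa genes open, was at 8.18, 8.27 and 8.10 in mutants, against 8.34, 8.72 and 8.66 in controls. Its groups did not overlap, as was true of 15.4% of the tested genes, and the difference was −0.39 ± 0.14 (SE, adjusted p = 0.594 in limma). Ezh2, the methyltransferase of the Polycomb complex that silences Hox genes, differed by −0.38 ± 0.19 and the DOT1L partner gene Mllt10 by −0.35 ± 0.18. After cyclic loess the list stood at 8 of 16 higher (median 0.01), and with repeated quantile normalization at 8 of 16 (median 0.00).

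Downstream, 12 of 13 tested genes listed as targets of HOXA9 and MEIS1 had a lower mutant mean (median −0.18), and 0 passed. Over all tested genes, 42.5% had a higher mutant mean. The list is not separate from the others: Myb, Erg and Lmo2 are also listed as stem cell transcription factors, and Flt3 as a progenitor marker. Sox4 was at 9.54, 9.68 and 9.74 in mutants, against 9.83, 9.87 and 9.89 in controls (−0.21 ± 0.11, SE), so its groups did not overlap. The pseudokinase gene Trib2 differed by −0.68 ± 0.38 and the kinase gene Syk by −0.44 ± 0.25, with adjusted p = 0.596 to 0.599 for the 3 genes in limma. The highest Trib2 value, 7.07, was on control replicate 2, against 5.35 to 5.93 in mutants. The median was −0.07 after cyclic loess and −0.06 without control replicate 1, where 5 of 13 genes were higher.

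**Figure D4:**
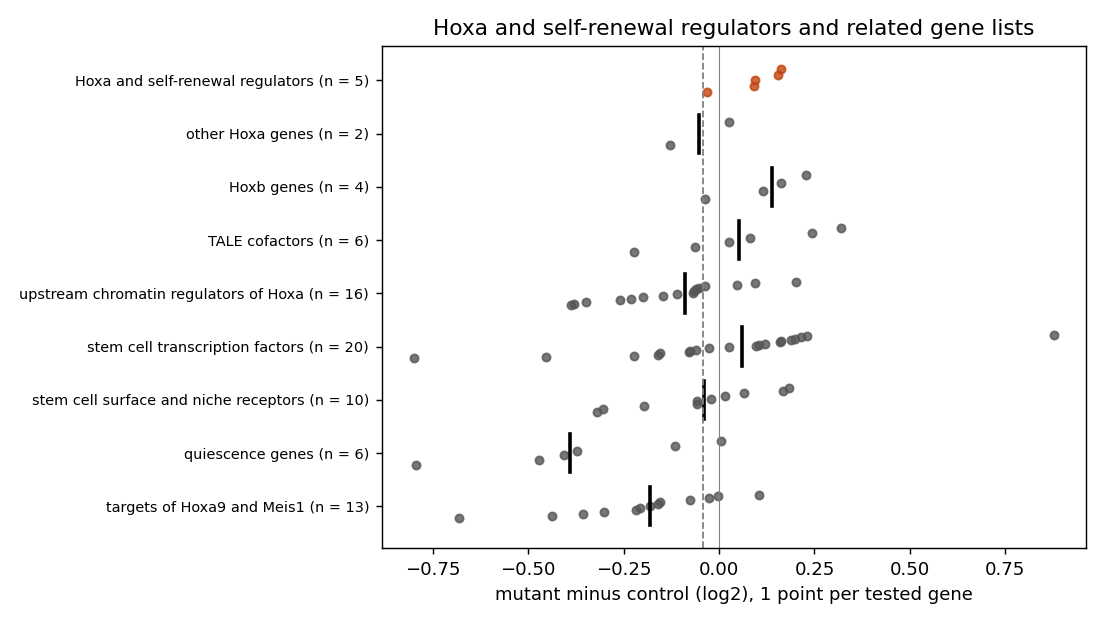
Mutant minus control on the log2 scale for each tested gene of the Hoxa and self-renewal regulators (orange) and of 8 related lists (grey), with a black bar at the median of each related list. The dashed line is the median over all tested genes (−0.04). Quiescence genes and targets of HOXA9 and MEIS1 have medians of −0.39 and −0.18, and no gene shown passed the test.

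Other stem cell transcription factor genes lay on either side of 0, with 11 of 20 tested genes higher (median 0.06), and from −0.01 to 0.15 on leaving out single arrays. Fli1, an ETS factor of blood and vessel progenitors, was at 8.85, 8.52 and 8.69 in mutants, against 9.03, 9.17 and 9.22 in controls (−0.45 ± 0.13, SE, adjusted p = 0.594 in limma). The RNA-binding self-renewal gene Msi2 differed by −0.80 ± 0.33, with mutant replicate 2 at 8.85 and the other mutants at 9.98 and 10.26, and Nfix by 0.23 ± 0.11. Egr1, an immediate early gene that was named after its values were seen and that also restrains stem cell cycling, had the widest difference of the list and a wide error (0.88 ± 0.62). Among surface and niche receptor genes, 4 of 10 tested were higher (median −0.04, and 0.02 with repeated quantile normalization), with Cxcr4, the receptor that holds progenitors in the marrow, at −0.30 ± 0.15, Cd48 at −0.32 ± 0.24 and Fgd5 at 0.18 ± 0.11. The stem cell surface genes Slamf1, Tek, Prom1 and Esam were below the cut-off in these cells.

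Genes of quiescence, the resting state of stem cells, had a lower mutant mean in 5 of 6 tested cases (median −0.39), and 0 passed. Over all tested genes, 42.5% had a higher mutant mean. The 3 dim genes of the list, Cdkn1c, Ndn and Pdk4, were not tested and had higher mutant means (by 0.08, 0.11 and 0.21). With dim genes included, 55.4% of all genes had a higher mutant mean, so dim genes in general were more often higher than tested ones. Cdkn1a, the cell cycle inhibitor p21, was at 8.39, 7.42 and 7.49 in mutants, against 8.33, 8.73 and 8.61 in controls. Mutant replicate 1 lay within the controls and the other mutants below them, and the difference was −0.79 ± 0.26 (SE). Txnip differed by −0.41 ± 0.14, with groups that did not overlap, and Cdkn1b, the inhibitor p27, by −0.47 ± 0.20, each at an adjusted p of 0.594 in limma. Cyclic loess gave a median of −0.24 and repeated quantile normalization one of −0.25, and the median ran from −0.48 to −0.26 on leaving out single arrays.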

How the data were processed

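The deposited values were used as given: 41345 probe sets with log2 intensities on 6 arrays, made by the authors with RMA, per the submitters' processing notes. RMA corrects background, aligns the arrays' distributions and summarises probes to a log2 value; no version or genome build is named in these sources. Per the labels' protocols, RNA was amplified as cDNA and labelled with biotin. Of the probe sets, 23521 had 1 gene symbol in a platform annotation table, 1814 several and 16010 none. Each gene was read from its brightest single-symbol probe set by mean over the arrays, and the lowest 40% of 22180 genes (under 4.84) were not tested, which left 13308. The difference between mutant and control was fitted with limma 3.58.1 (R 4.3.3), using moderated 2-sided tests without a block and Benjamini-Hochberg adjustment over the tested genes at 0.05. Dim regulators are given with the error of a fit without the filter. Errors of differences are limma standard errors. The fit was checked on simulated data, with equal noise for every gene and shifts larger than any difference of the regulators. That check does not measure the power to find differences as small as theirs. Figures were drawn with matplotlib 3.10.9.

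The regulators, the lists and the alternatives were chosen with earlier results of these data known, and the promoters and motifs after the values were seen. The 10 regulators were always named, with the 3 genes of lowest p in each related list, some sort and identity genes, and the genes of nearest profile. Lineage lists are given only where a regulator's values bear on them. Over all tested genes, arrays of the same replicate number correlated in their deviations from the group means at 0.13, 0.20 and −0.13, so the numbers were not taken as pairs. Gata2 nevertheless had the same order of replicate numbers in both groups. Signals over background limit the precision, and 3 arrays per group do so too.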

Additional observations from a re-analysis of the deposited data

How the results depend on the processing

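Over 19 alternatives, none of the regulators fitted passed the threshold of the setting in limma, except with array weights, where 1 did (Hoxa7, at 0.34). The 5 dim regulators had no p in most of these settings and could not pass there. All 10 were fitted without the filter. The number of genes past the threshold was 0 on the deposited values, 2960 with array weights, 1068 at an unadjusted p of 0.05, and 0 to 4 on leaving out single arrays, the highest without mutant replicate 1 and 1 gene without mutant replicate 2. With the replicate block, from the numbers in the titles, 0 genes and 0 of the regulators passed. In that fit the error of Gata2 was smaller (0.09 ± 0.15, SE, adjusted p = 0.837 in limma) than without a block (0.09 ± 0.37). With a block for arrays of high and low Y-linked expression (Eif2s3y at 7.74, 7.31 and 4.77 in mutants and 4.88, 7.82 and 7.85 in controls) 0 passed as well. The share of tested genes with a higher mutant mean was 42.5% on the deposited values and 52.6% with arrays centred on their medians.

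The difference of Cd34 turned positive with repeated quantile normalization (0.0411), with arrays centred on their medians (0.0276) and after cyclic loess (0.044), and ran from −0.27 to 0.14 on leaving out single arrays. Over the same omissions Meis1 ran from −0.0729 (without mutant replicate 1) to 0.2237 and Gata2 from −0.21 to 0.48, while Hoxa9 (0.09 to 0.25) and Hoxa7 (0.07 to 0.31) kept their sign. The dimmer Mecom probe set alone gave −0.0175, against 0.09 for the brighter, and the cause was not tested. Under the stricter filter, only Gata2 and Cd34 of the 10 were tested.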
